A study of Danio rerio with 12 samples.

Results

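Oxidative phosphorylation genes were followed in zebrafish embryonic macrophages with and without the receptor Csf1r. Members were the rows of the count table whose gene symbol names a subunit of respiratory complexes I to IV or of ATP synthase (complex V), whether encoded in the nucleus or in the mitochondrial genome. The symbol rule took 117 of the 35117 gene IDs. Of these, 104 were nuclear and 13 mitochondrial. The nuclear members comprised 91 subunit genes and 13 genes that the same symbols bring in, for assembly factors of complexes I and II (ndufaf and sdhaf genes) and for the ATP synthase inhibitor (atp5if1 genes). After the filter on low counts 112 members were tested, 99 nuclear and all 13 mitochondrial. The 5 that did not pass the filter were ndufa12, ndufa4l2, ndufa4l2b and second gene IDs of sdhd and cox5b.

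The cells were GFP-positive cells sorted from whole embryos that carried an mpeg-GFP reporter, in which a macrophage promoter drives the fluorescent protein. Control embryos were wild type apart from reporter transgenes, which the paper's methods list as the GFP reporter and an shhb enhancer-trap insertion with mCherry. Whether csf1rDM embryos carried that insertion is not said. By the paper's definition csf1rDM embryos were homozygous for the j4e1 allele of csf1ra and the re01 allele of csf1rb, the duplicated zebrafish genes of the receptor. The paper's methods also name a second csf1rb allele, used for flow cytometry and lineage tracing. They do not name the allele for these libraries in particular. The stages sampled were 28 and 50 hpf (hours post-fertilisation). By the paper's general methods, phenylthiourea was added to the medium before the earlier stage to prevent pigment, so the length of exposure differs with stage. With 3 libraries in each of 4 groups, a library came from a pool of 35 embryos, or of 70 for csf1rDM at 50 hpf. The sources do not say whether pools came from separate clutches, so p-values measure the spread between these libraries.

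The respiratory chain passes electrons from NADH (complex I) and succinate (complex II) through complex III to oxygen at complex IV, pumping protons that drive ATP synthase. Complex II is wholly nuclear-encoded, whereas the other complexes combine nuclear subunits with a few made from mitochondrial DNA, so that assembly needs transcripts from both genomes. In macrophages, use of this pathway is known to change with activation and growth.

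Libraries held between 8641139 and 20261650 counts. Mitochondrially encoded members took 1.18% to 1.94% of the counts and nuclear members 0.769% to 1.15%. Levels are given as CPM, counts scaled to library size with the factors of edgeR. Of 18 gene IDs in a macrophage marker list of 13 symbols, 17 reached 0.5 CPM in a library. The exception was an ID with the symbol mpeg1, which stayed below 0.5 CPM in every library. The list has more gene IDs than symbols, and levels by gene ID are not given for mpeg1. That ID alone therefore does not show whether the sorted cells expressed the gene of the reporter promoter. The summed level of the list was 17345 to 28269 CPM. At 28 hpf csf1ra lay between 214 and 235 CPM in the control libraries and 239 and 300.4 CPM in the csf1rDM libraries, and csf1rb between 135 and 161 CPM against 61.3 and 97.7 CPM. At 50 hpf csf1ra lay between 349 and 444 CPM against 338 and 405 CPM, and csf1rb between 257 and 440.4 CPM against 152 and 213 CPM. Such RNA levels do not check the alleles, since a mutant message can still be counted.

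Skeletal muscle markers set libraries apart. The summed level of the 9 gene IDs in that list, all of them detected, at 28 hpf was 9.97 to 14.7 CPM in the control libraries and 102, 679 and 2936 CPM in csf1rDM replicates 1, 2 and 3. At 50 hpf it was 3865, 3392 and 7.22 CPM in control replicates 1, 2 and 3, and 12.8, 10.3 and 5023 CPM in csf1rDM. The 5 libraries above 500 CPM fell in 3 of the groups. Medians and some single genes are therefore also given from a fit to the 7 other libraries, an alternative chosen after seeing the data. It leaves 1 library each in csf1rDM at 28 hpf and control at 50 hpf, with each lone library assumed to vary like the other groups. Fewer members passed in it than in the fit of all 12 libraries. The share of all genes called in it is not given, so that fall cannot be set against the whole table.

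The first comparison asked how csf1rDM cells differed from control cells at the same stage. Most nuclear oxidative phosphorylation genes had log2 differences below 0 at both stages, and members of each of the 5 complexes passed the test as lower in csf1rDM. At 28 hpf 33 members were lower and 2 higher at an edgeR adjusted p under 0.05, where 10.9% of all 16429 tested genes were lower and 9.66% higher. At 50 hpf 29 members were lower and 1 higher, against 11.4% and 8.44% of all genes. The share called depended on level. At a mean of at least 50 CPM, 16 of 38 nuclear members were lower at 28 hpf and 17 at 50 hpf. Of all tested genes at that level 18.1% and 19.7% were lower. Under 50 CPM 13 and 11 of 61 nuclear members were lower, beside 8.75% and 8.99% of all genes. All values are relative levels in bulk samples, in which fewer cells of a type and less RNA per cell cannot be told apart.

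The median log2 difference of the 99 nuclear members was -0.33 at 28 hpf and -0.32 at 50 hpf, beside 0.02 and -0.02 over all tested genes. Of the 99, 88 had a value below 0 at 28 hpf and 92 at 50 hpf. The median of the 13 mitochondrially encoded members was -0.20 and -0.12. At the thresholds used in the study (FDR under 0.01 and more than 2-fold), ndufa4b (higher) and mt-nd3 (lower) were the members that passed at 28 hpf, beside 4.08% of all genes, and 0 members passed at 50 hpf, beside 5.33%.

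The counts depended on single libraries more than the medians did. For fits without 1 library, here and below, the share of all genes called is not given. A shift in calling over the whole table therefore cannot be told apart from one of the members. The 33 lower members at 28 hpf became 15 without control replicate 3 of that stage, 52 without control replicate 1 and 55 without csf1rDM 50 hpf replicate 2. The 29 lower members at 50 hpf became 7 without control replicate 2 of that stage, 8 without control replicate 3 and 14 without csf1rDM 50 hpf replicate 1. In the 7 libraries low in muscle markers few of these calls held, while the nuclear medians were -0.30 and -0.44, beside -0.04 and 0.05 over all genes.

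**Figure D1:**
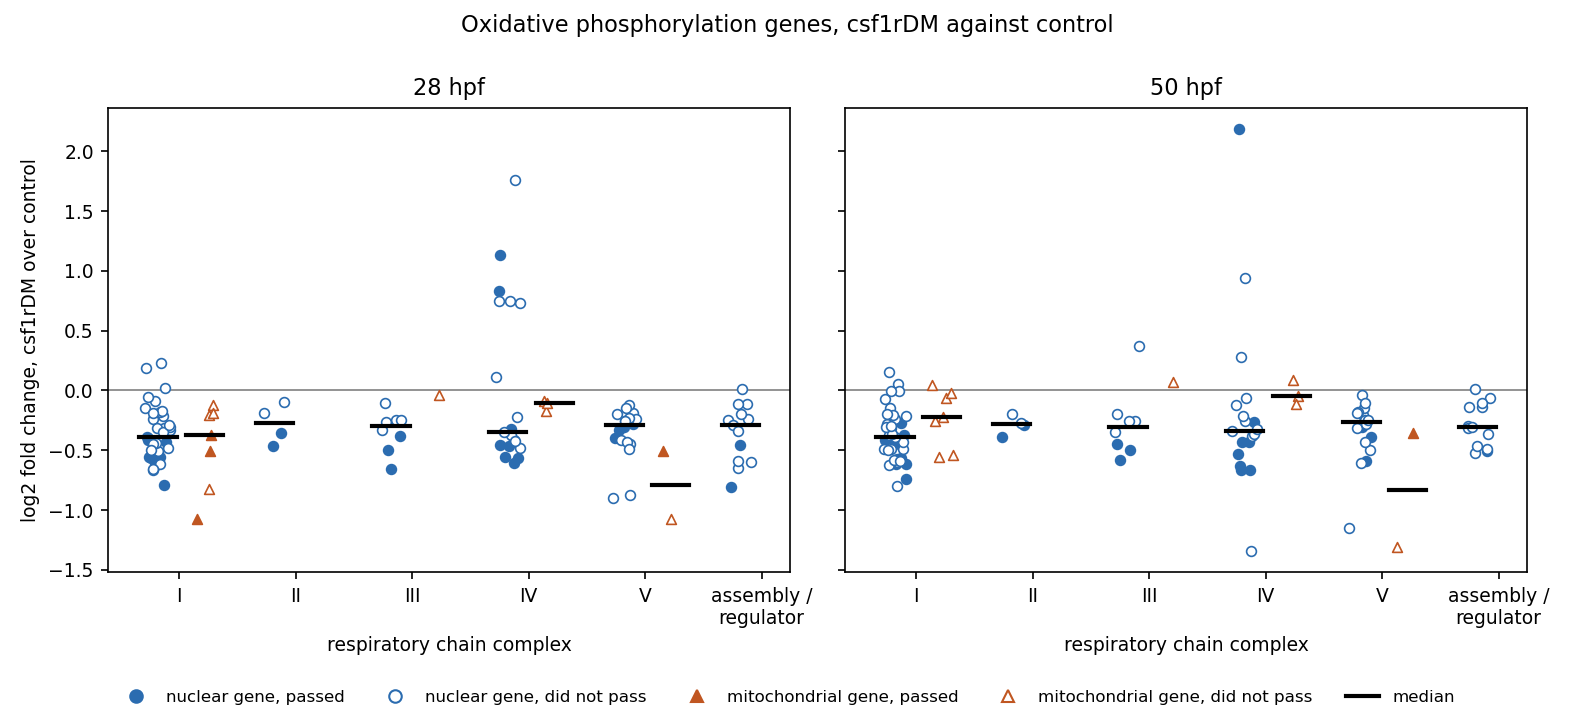
Log2 fold change of each tested oxidative phosphorylation gene in csf1rDM over control (vertical axis) by complex, at 28 hpf (left) and 50 hpf (right), with nuclear genes as circles, mitochondrial genes as triangles, filled symbols for genes at adjusted p under 0.05 and bars for the median where a class holds more than 1 gene. The nuclear medians of the complexes lie between -0.39 and -0.26 at both stages, and the nuclear genes far above 0 belong to complex IV.

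In complex I, the NADH dehydrogenase, 11 of 37 nuclear subunits were lower at 28 hpf and 11 at 50 hpf, with a median of -0.39 at each stage. The clearest was ndufs7, which carries the last iron-sulphur cluster before ubiquinone. Its levels in control at 28 hpf were 138, 149 and 149 CPM, against 84.5, 84.0 and 83.4 CPM in csf1rDM. At 50 hpf they were 113, 136 and 147 CPM against 71.2, 86.9 and 78.8 CPM. The groups did not overlap at either stage. The log2 differences of the earlier and later stage were -0.79 (± 0.11 SE, edgeR adjusted p = 0.000283) and -0.74 (± 0.11 SE, adjusted p = 0.000394), and ndufs7 passed in each fit that left out 1 library of the compared groups. In the 7-library fit its value at 28 hpf was -0.81 with an adjusted p of 0.0555.

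Of the 30 tested accessory subunits of complex I, 9 were lower at 28 hpf and 8 at 50 hpf. For ndufb3, one of these, levels in control at 28 hpf were 30.9, 29.4 and 34.9 CPM, against 21.9, 19.6 and 20.4 CPM in csf1rDM, and at 50 hpf 25.2, 26.4 and 25.4 CPM against 13.1, 19.1 and 17.97 CPM. The groups were again apart, with log2 differences of -0.62 and -0.61 (± 0.14 SE each, edgeR adjusted p = 0.00865 and 0.00923). Without control 28 hpf replicate 3 the adjusted p at 28 hpf was 0.0538. Both forms of the mitochondrial acyl carrier protein, which also serves fatty acid synthesis, were lower at both stages, with -0.56 and -0.45 for ndufab1 and -0.42 and -0.41 for ndufab1b. At 50 hpf the ndufab1 call was lost without control replicate 2 or 3 (adjusted p up to 0.0737) and the ndufab1b call without each of 5 libraries, the exception being control replicate 1 (up to 0.105), and at 28 hpf ndufab1b lost its call without control replicate 2 or 3 (up to 0.111).

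Not every subunit had a value below 0. The flavoprotein gene ndufv1, where electrons enter from NADH, had at 28 hpf 137, 133 and 139 CPM in control libraries and 176, 151 and 153 CPM in csf1rDM libraries. These groups did not overlap, and the log2 difference of 0.23 did not pass (± 0.09 SE, edgeR adjusted p = 0.0892). At 50 hpf its value was 0.15 (± 0.09 SE, adjusted p = 0.265) and the groups overlapped. When the 7 nuclear subunits of the catalytic core were set beside the accessory subunits, a grouping made after the values were seen, the medians were -0.17 and -0.42 at 28 hpf and -0.27 and -0.42 at 50 hpf. In control at 28 hpf the 7 core genes summed to 1204 CPM and the 31 accessory genes to 1199 CPM. Medians of all nuclear members at 28 and 50 hpf were -0.26 and -0.27 from 50 CPM up, and -0.43 and -0.37 below it. Level and place in the core therefore cannot be told apart.

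Complex II, succinate dehydrogenase, had 4 tested genes, of which 2 were lower at each stage. Lower at both was sdhd, a membrane anchor, at 127, 139 and 135 CPM in control against 114, 103 and 96.7 CPM at 28 hpf and at 108, 130.2 and 126 CPM against 84.6, 95.6 and 97.6 CPM at 50 hpf. Its log2 differences were -0.35 (± 0.10 SE, edgeR adjusted p = 0.0268) and -0.39 (± 0.10 SE, adjusted p = 0.0157), with no overlap of the groups. The other calls differed by stage, with the second anchor gene sdhc at 28 hpf (-0.46) and the flavoprotein gene sdha at 50 hpf (-0.29). The sdhd call was lost without control replicate 2 or 3 of the stage and, at 50 hpf, without csf1rDM replicate 1, with adjusted p up to 0.0928 and 0.081.

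In complex III, which hands electrons from ubiquinol to cytochrome c, 3 of 8 nuclear subunits were lower at each stage (medians -0.30 and -0.30). The core subunit gene uqcrc2 had 302, 313 and 307 CPM in control against 241, 209 and 202 CPM in csf1rDM at 28 hpf, and 261, 282 and 297 CPM against 188, 212 and 192 CPM at 50 hpf. Its groups were separate at both stages, with a log2 difference of -0.50 at each (± 0.08 SE, edgeR adjusted p = 0.00134 and 0.00117). Its paralogue uqcrc2a was lower at 50 hpf (-0.58 ± 0.10 SE, adjusted p = 0.00126), with 64.6, 70.7 and 79.7 CPM against 47.9, 48.2 and 47.6 CPM. At 28 hpf the value for uqcrc2a was -0.27 (± 0.10 SE, adjusted p = 0.0758). The hinge protein gene uqcrh, which lies between cytochrome c and cytochrome c1, was lower at 28 hpf by a log2 difference of -0.66 (± 0.12 SE, adjusted p = 0.00269).

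Complex IV, cytochrome c oxidase, had members that moved in both directions at 28 hpf. Of 19 tested nuclear subunits 7 were lower at each stage, and the medians were -0.35 and -0.34. The small subunit gene cox7a2 had 29.2, 31.9 and 31.3 CPM in control against 18.3, 21.8 and 20.5 CPM in csf1rDM at 28 hpf, and 18.9, 25.1 and 22.3 CPM against 11.7, 14.8 and 15.4 CPM at 50 hpf. Its log2 differences were -0.61 and -0.66 (± 0.15 SE each, edgeR adjusted p = 0.0109 and 0.00684), and the call held without any 1 library of the compared groups. Also lower at both stages were cox5aa, cox5b and cox8a. The cox5b calls were lost without control replicate 2 or 3 of the stage, and those of cox8a without either of these or a csf1rDM replicate (2 or 3 at 28 hpf, 1 at 50 hpf), with adjusted p up to 0.158 and 0.173.

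The 2 members higher in csf1rDM at 28 hpf were both complex IV genes. One was ndufa4b, whose mammalian counterpart NDUFA4 was first assigned to complex I and later to complex IV. Its levels in control were 18.4, 21.8 and 22.7 CPM, against 53.0, 50.8 and 34.4 CPM in csf1rDM, a log2 difference of 1.13 (± 0.22 SE, edgeR adjusted p = 0.00317) that also passed in the 7-library fit at 1.31. The other was cox6b1, a subunit at the dimer interface, with 4.58, 5.10 and 6.504 CPM against 10.9, 11.3 and 6.83 CPM. Its log2 difference of 0.83 (± 0.23 SE, adjusted p = 0.0241) lost its call without replicate 1 or 2 of either group, with adjusted p up to 0.150, and in the 7-library fit it was 0.98 with an adjusted p of 0.112. The groups did not overlap for either gene.

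At 50 hpf the single higher member was cox7a1, the muscle form of its subunit in mammals. It stood at 0.250, 0.382 and 0.255 CPM in control and 1.67, 1.53 and 0.962 CPM in csf1rDM, a log2 difference of 2.19 (± 0.67 SE, edgeR adjusted p = 0.0362). The call was lost in each of the 12 fits without 1 library and in the 7-library fit. The csf1rDM replicate with 5023 CPM of muscle markers had the lowest cox7a1 level of its group (0.962 CPM). At 28 hpf cox7a1 did not pass, although its log2 difference was 1.54 to 2.07 in fits without 1 library. The part of muscle cells in the cox7a1 differences was not tested.

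In ATP synthase, 4 of 18 nuclear genes were lower at each stage (medians -0.29 and -0.26), and the values of all 18 lay below 0 at both. The catalytic beta subunit gene atp5f1b had 1216, 1284 and 1226 CPM in control against 1083, 1029 and 952 CPM in csf1rDM at 28 hpf, with no overlap, a log2 difference of -0.28 (± 0.07 SE, edgeR adjusted p = 0.0173). At 50 hpf the groups overlapped, with 1515, 1699.9 and 1782 CPM against 1356, 1546 and 1330.4 CPM, a log2 difference of -0.24 (± 0.07 SE, adjusted p = 0.037). The 50 hpf call was lost without control replicate 2 or 3 or csf1rDM replicate 1 or 3, with adjusted p up to 0.167, and the 28 hpf call without control replicate 3 (0.0518).

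Among the 13 assembly factors and inhibitors, the inhibitor paralogues atp5if1a and atp5if1b parted. These proteins block ATP hydrolysis by the synthase. For atp5if1a, control libraries at 28 hpf had 22.1, 27.2 and 29.1 CPM and csf1rDM libraries 14.8, 17.1 and 13.03 CPM, a log2 difference of -0.80 (± 0.18 SE, edgeR adjusted p = 0.00748). The other copy, atp5if1b, had overlapping groups and a value of 0.01 (± 0.16 SE, adjusted p = 0.974). At 50 hpf the value for atp5if1a was -0.49 (± 0.18 SE, adjusted p = 0.0726).

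**Figure D2:**
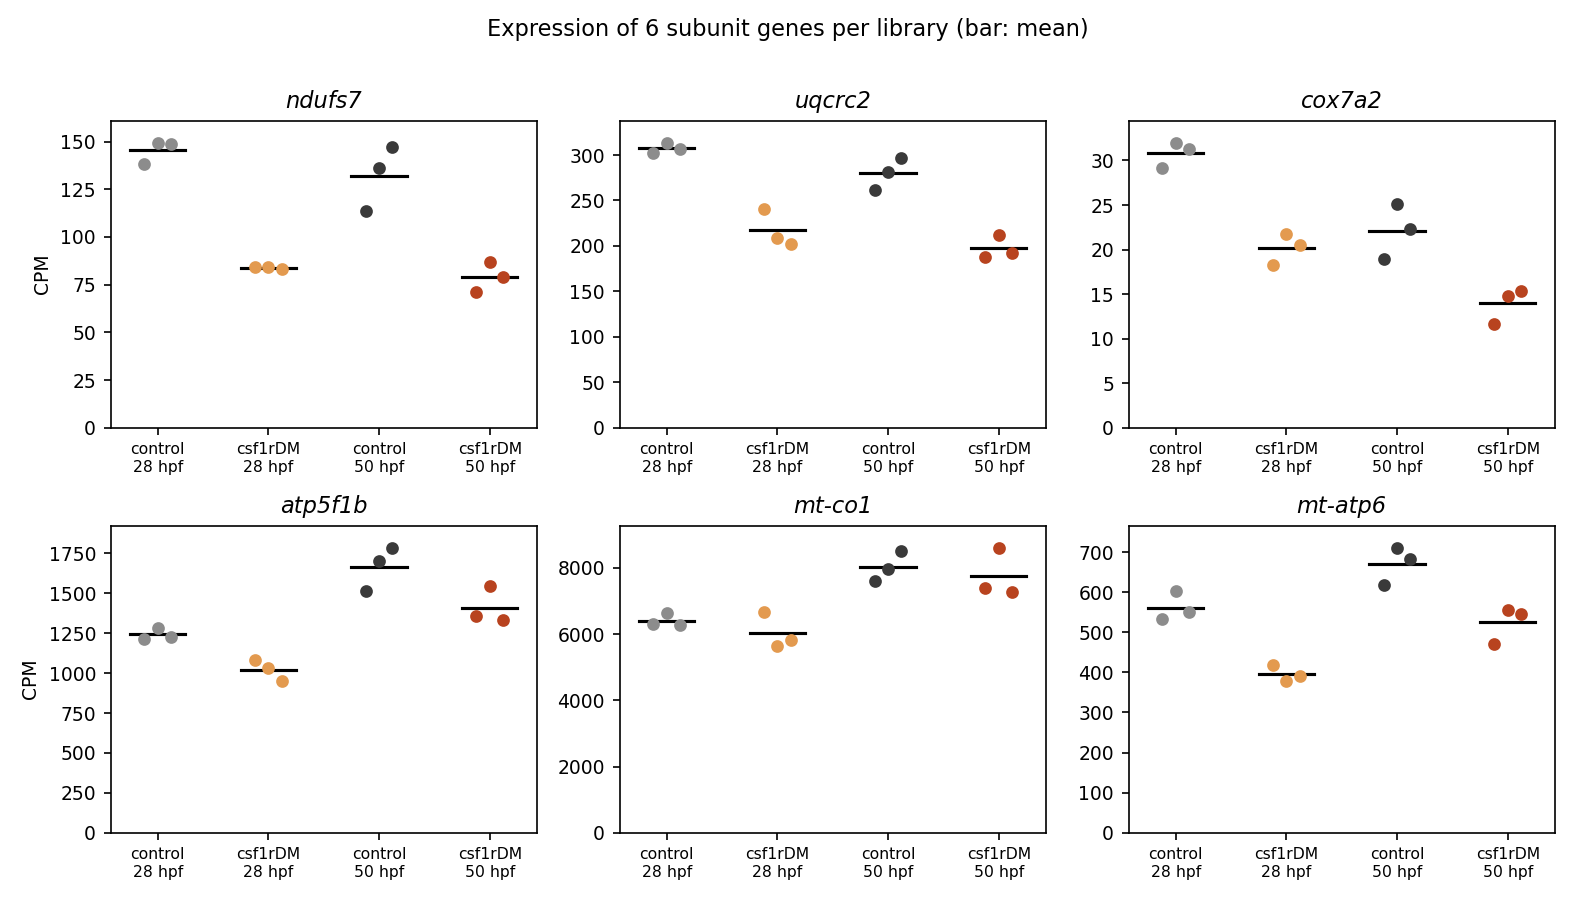
Level in CPM (vertical axes from 0, a scale for each panel) of 6 subunit genes in each of the 12 libraries, as points by genotype and stage with the group mean as a bar. The csf1rDM points of ndufs7, uqcrc2, cox7a2 and mt-atp6 lie below the control points of the same stage, whereas those of mt-co1 overlap, with means of 6045 and 6408 CPM at 28 hpf.

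The members lower at 28 and at 50 hpf were compared. The 2 genotype comparisons set no library in common against each other, but both came from the same fit of all libraries. They share its filter and its estimate of each gene's spread, so the calls at the 2 stages are not independent. There were 20 such members, 60.6% of the 33 and 69.0% of the 29, where for all tested genes the overlap was 59.1% and 56.3% of the lower genes. The 20 came from every complex. They were ndufa8, ndufa10, ndufab1, ndufab1b, ndufb3, ndufb5, ndufs7, ndufs8 and ndufv3 of complex I, sdhd, uqcrc1, uqcrc2, cox5aa, cox5b, cox7a2, cox8a, atp5f1b, atp5po, mt-atp6 and the assembly factor ndufaf1. Across the 86 tested nuclear subunits the genotype effects at the 2 stages had a Pearson r of 0.68 and a Spearman rho of 0.73, against 0.45 and 0.51 across all 16429 genes. These are correlations across genes, which are not independent replicates. For the 71 nuclear subunits with a mean of at least 10 CPM, r was 0.74 and rho 0.75. No value is given for all genes at that level. Expression level and membership therefore cannot be told apart in the contrast with all genes.

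Of the mitochondrially encoded subunits, at 28 hpf 4 of 13 were lower (mt-nd1, mt-nd2, mt-nd3 and mt-atp6), and at 50 hpf only mt-atp6 was. The complex I gene mt-nd2 had 506, 560.1 and 543 CPM in control against 405, 369 and 361 CPM in csf1rDM at 28 hpf, a log2 difference of -0.50 (± 0.09 SE, edgeR adjusted p = 0.00136). At 50 hpf its groups overlapped, and the value was -0.23 (± 0.09 SE, adjusted p = 0.0824).

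The membrane subunit gene of ATP synthase, mt-atp6, had 533, 602 and 551 CPM in control against 419, 378 and 390.1 CPM in csf1rDM at 28 hpf. At 50 hpf it had 619, 709 and 681 CPM against 471, 556 and 547 CPM. The groups were apart at both stages, with log2 differences of -0.51 (± 0.08 SE, edgeR adjusted p = 0.000999) and -0.35 (± 0.08 SE, adjusted p = 0.00854). Without control 50 hpf replicate 2 the adjusted p at 50 hpf was 0.0567, and in the 7-library fit the values were -0.45 and -0.45 with adjusted p of 0.175 and 0.155.

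The genes of cytochrome c oxidase and cytochrome b did not pass. For mt-co1, the catalytic subunit of complex IV, the values were -0.08 and -0.05 (± 0.07 SE each, edgeR adjusted p = 0.45 and 0.689). For mt-cyb, cytochrome b of complex III, they were -0.04 and 0.07 (± 0.08 SE each, adjusted p = 0.775 and 0.619). Levels of mt-nd3, mt-nd4l and mt-atp8 were 2.495 to 6.83, 1.94 to 7.10 and 0.222 to 0.958 CPM, so that mt-nd3 at 28 hpf (4.74, 5.38 and 5.95 CPM against 2.55, 2.495 and 2.56 CPM, log2 difference -1.08 ± 0.24 SE, adjusted p = 0.00674) rests on few reads. For mt-atp8 the groups did not overlap at either stage and the values were -1.08 and -1.31 (± 0.69 SE each, adjusted p = 0.304 and 0.217). Because mt-atp8 overlaps mt-atp6, mt-nd4l overlaps mt-nd4 and mt-nd6 lies antisense to mt-nd5, and the strand setting is not given, reads of these pairs may have been split or dropped.

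Other lists of mitochondrial genes gave a setting for these values. Beside the list counts, here and below, 10.9% of all tested genes were lower at 28 hpf and 11.4% at 50 hpf. Higher were 9.66% and 8.44%. The mitochondrial ribosome, which translates the mitochondrial messages, had a median of -0.47 at 28 hpf and -0.36 at 50 hpf over 73 genes, with 34 and 24 lower and 0 higher. For 78 tested cytosolic ribosomal protein genes the medians were -0.15 and -0.08, with 3 and 2 lower and 0 and 2 higher. In a list of 36 further assembly factors 9 and 6 were lower (medians -0.42 and -0.38), among them atpaf1 and cox15 at both stages.

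Genes that copy and transcribe mitochondrial DNA were lower in part. Of 14 tested, 4 were lower at each stage and 0 higher. The single-strand binding protein gene ssbp1 had log2 differences of -1.07 (edgeR adjusted p = 0.000597) and -0.93 (adjusted p = 0.00134). The transcription factor gene tfb2m had -0.87 and -0.68, and tfam, which packages the mitochondrial genome, -0.50 and -0.58. The helicase gene twnk was lower at 28 hpf (-1.33) and the polymerase gene polg at 50 hpf (-1.08).

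A list of electron carriers, most of them coenzyme Q synthesis enzymes, and the tricarboxylic acid (TCA) cycle followed. Of 15 tested genes of the first list 5 and 4 were lower, namely pdss1, pdss2 and coq5 of coenzyme Q synthesis at 28 hpf, pdss2 and the flavoprotein dehydrogenase gene etfdh at 50 hpf, and at both stages cytochrome c (cycsb, -0.76 and -0.63) and cytochrome c1 (cyc1, -0.33 and -0.37), a complex III subunit whose symbol the rule does not take. Of 19 TCA genes 3 and 2 were lower, while sucla2, a succinyl-CoA ligase subunit, was higher at both stages (0.27 and 0.37) and ogdha at 50 hpf (0.47). Among 11 tested regulators of mitochondrial genes, a list that also holds tfam, 2 were lower at each stage and 0 higher, and pprc1, a coactivator of the PGC-1 family, had -1.05 at 28 hpf.

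Other gene groups were also set against genotype, and some of them differed. Of 15 tested proliferation genes 12 were lower at 28 hpf and 15 at 50 hpf, with medians of -0.80 and -1.50. Summed macrophage markers were 23067 to 23908 CPM in control against 27402 to 28269 CPM in csf1rDM at 28 hpf, and 17345 to 19337 CPM against 21936 to 25791 CPM at 50 hpf. Keratinocyte markers, of which 8 of 9 IDs were detected and krt17 was not, summed to 471 to 715 CPM against 716 to 1171 CPM and to 193 to 286 CPM against 406 to 509 CPM. Neutrophil markers, of which 4 of 5 were detected and cxcr1 was not, summed to 84.0 to 450.5 CPM against 7.64 to 113 CPM at 28 hpf and to 11.6 to 27.1 CPM in all libraries at 50 hpf. Yolk and liver markers, of which 6 of 8 were detected and ttr and serpina1 were not, summed to 56.8 to 61.6 CPM against 61.2 to 117 CPM at 28 hpf and to 2.68 to 4.39 CPM against 5.99 to 15.2 CPM at 50 hpf. The 4 endothelial markers, all detected, summed to 41.7 to 45.7 CPM against 42.1 to 53.6 CPM at 28 hpf and to 54.6 to 73.8 CPM against 75.2 to 81.1 CPM at 50 hpf. Between the genotypes, neutrophil, yolk and liver, and endothelial sums overlapped at 28 hpf. Erythroid, neural and cardiac muscle sums overlapped at both stages, as with 1.93 to 31.9 CPM against 2.92 to 26.3 CPM for erythroid markers at 28 hpf. The part of these groups in the differences above was not tested.

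The second comparison followed each genotype from 28 to 50 hpf. Of the 13 mitochondrially encoded members 6 rose in control and 11 in csf1rDM, of the 99 nuclear members 6 and 7 rose, and the largest rises were those of alternative complex IV subunits. In control cells 12 members were higher and 6 lower at 50 hpf, where 12% and 11.4% of all tested genes were. In csf1rDM cells 18 members were higher and 4 lower, beside 13.3% and 14.4%. Among genes with a mean of at least 50 CPM, 3 of 38 nuclear members were higher in control and 2 lower. Of all genes at that level 16.8% and 28.2% were. In csf1rDM 4 and 2 of the 38 were, beside 16.6% and 32.4%. At the thresholds of the study 4 members passed in control and 2 in csf1rDM, all higher, beside 6.29% and 8.24% of all genes.

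The control count of higher members became 6 without control 28 hpf replicate 1 or control 50 hpf replicate 3 and 7 when control 50 hpf replicate 2 was left out. The 6 lower members of control became 3 without control 28 hpf replicate 3 or control 50 hpf replicate 1, 10 when control 28 hpf replicate 1 was left out and 11 without csf1rDM 28 hpf replicate 3. The 4 lower members of csf1rDM became 2 without csf1rDM 50 hpf replicate 1 and 10 without csf1rDM 50 hpf replicate 2. In the 7 libraries low in muscle markers no stage call held outside the complex IV isoforms. The nuclear medians there were 0.03 in control and -0.13 in csf1rDM, beside -0.02 and 0.10 over all genes.

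**Figure D3:**
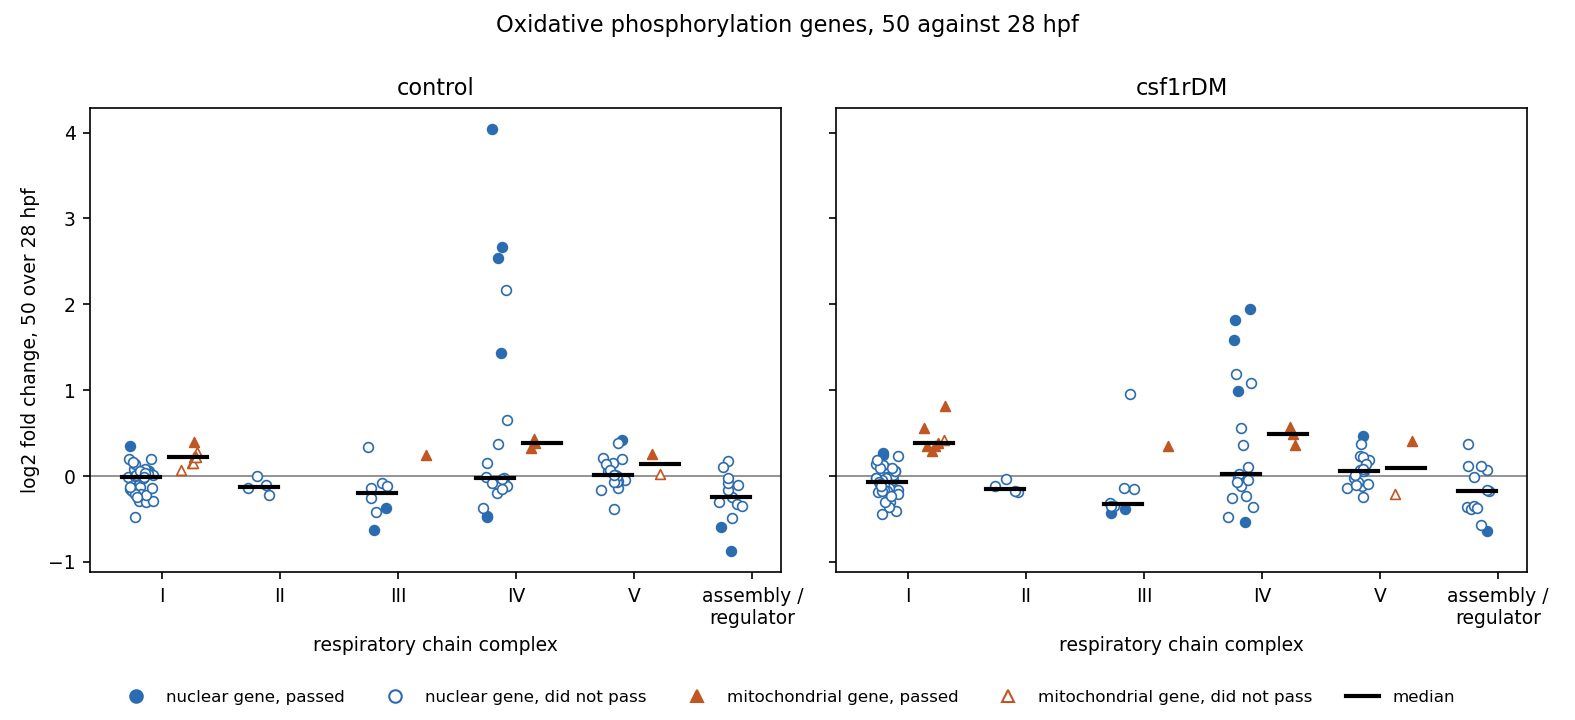
Log2 fold change of each tested gene at 50 over 28 hpf (vertical axis) by complex, in control (left) and csf1rDM (right), with circles for nuclear and triangles for mitochondrial genes, filled symbols for genes at adjusted p under 0.05 and bars for the median where a class holds more than 1 gene. Of the 13 mitochondrial genes 6 are filled in control and 11 in csf1rDM, and the nuclear genes with the largest rises are in complex IV.

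Marker sums also moved with stage. In control, mean sums at 28 and 50 hpf were 23514 and 18465 CPM for macrophage, 575 and 253 CPM for keratinocyte, 282 and 21.3 CPM for neutrophil, 59.6 and 3.69 CPM for yolk and liver, and 44.3 and 64.2 CPM for endothelial markers. In csf1rDM, in the same order, they were 27913 and 23387, 872 and 464, 64.6 and 16.1, 88.5 and 10.9, and 48.9 and 77.3 CPM. Their part in the stage differences was not tested.

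The 13 mitochondrially encoded members had a median log2 change of 0.24 in control and 0.39 in csf1rDM, beside -0.05 and -0.07 for the nuclear members and 0.06 and 0.04 for all genes. The last 2 sets of medians depended on level. At a mean of at least 50 CPM they were -0.01 and -0.03 for nuclear members and -0.10 and -0.12 for all genes. Under 50 CPM they were -0.08 and -0.09 for nuclear members and 0.13 and 0.12 for all genes. In control 6 mitochondrially encoded members were higher (mt-nd4, mt-cyb, mt-co1, mt-co2, mt-co3 and mt-atp6). In csf1rDM 11 were higher, all but mt-nd4l and mt-atp8. The difference between the genotypes was itself tested in the interaction, and 0 members passed it.

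For mt-nd4, a proton-pumping subunit of complex I, control libraries had 917, 929 and 914 CPM at 28 hpf and 1117, 1262 and 1246 CPM at 50 hpf. Those of csf1rDM had 893, 853 and 787 CPM and then 1176, 1420.0 and 1150.3 CPM. Neither pair of groups overlapped. The log2 changes were 0.39 (± 0.08 SE, edgeR adjusted p = 0.00323) and 0.56 (± 0.08 SE, adjusted p = 0.000193), and both calls held without any 1 library of the compared groups.

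For mt-co3 the 28 hpf levels were 1271, 1388 and 1351 CPM in control and 1287, 1186 and 1261 CPM in csf1rDM. The 50 hpf levels were 1548, 1738 and 1939 CPM and 1748, 2079.7 and 1737 CPM. The stages did not overlap in either genotype, with log2 changes of 0.38 (± 0.08 SE, edgeR adjusted p = 0.00553) and 0.58 (± 0.09 SE, adjusted p = 0.000258). In control the calls of mt-co1, mt-co2, mt-co3 and mt-cyb were lost without at least 2 of the 6 libraries compared, control 28 hpf replicate 1 and control 50 hpf replicate 3 among them, and that of mt-atp6 without any of the 6. In csf1rDM mt-nd5 and mt-nd6 lost their calls without 4 of 6 libraries and mt-nd3 without 2, and the other 8 kept theirs. In the 7-library fit the calls of mitochondrially encoded members did not hold in either genotype, and their medians were 0.34 in control and 0.27 in csf1rDM.

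Complex IV held 4 nuclear genes that rose steeply, each with a partner form that did not pass as higher. One was ndufa4b. Its control libraries went from 18.4, 21.8 and 22.7 CPM at 28 hpf to 99.4, 134 and 166 CPM at 50 hpf, and csf1rDM libraries from 53.0, 50.8 and 34.4 CPM to 176, 186 and 123.5 CPM. The stages were fully apart, with log2 changes of 2.67 (± 0.23 SE, edgeR adjusted p = 3.27e-06) and 1.82 (± 0.22 SE, adjusted p = 5.04e-05). The partner ndufa4 had values of -0.08 and -0.07 (± 0.14 SE each, adjusted p = 0.743 and 0.763).

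For cox6b1 control libraries went from 4.58, 5.10 and 6.504 CPM to 24.96, 31.9 and 37.6 CPM. Those of csf1rDM went from 10.9, 11.3 and 6.83 CPM to 27.8, 33.8 and 25.4 CPM. The log2 changes were 2.54 (± 0.23 SE, edgeR adjusted p = 6.3e-06) and 1.59 (± 0.22 SE, adjusted p = 0.000182). Its paralogue cox6b2, the testis form in mammals, fell in control from 90.4, 110 and 112 CPM to 70.5, 77.6 and 78.6 CPM, a log2 change of -0.46 (± 0.10 SE, adjusted p = 0.00485), and had a value of -0.26 (± 0.10 SE, adjusted p = 0.078) in csf1rDM.

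The remaining genes were cox8b and cox4i1l. For cox8b the control libraries went from 4.35, 6.48 and 6.01 CPM to 12.9, 16.5 and 16.03 CPM and the csf1rDM libraries from 6.30, 6.67 and 5.27 CPM to 11.97, 13.6 and 10.8 CPM. The log2 changes were 1.43 (± 0.21 SE, edgeR adjusted p = 0.000265) and 0.99 (± 0.21 SE, adjusted p = 0.00312), against -0.38 and -0.47 (adjusted p = 0.164 and 0.0813) for cox8a. For cox4i1l, a gene with the symbol of a cox4i1-like form, control libraries went from 0.395, 0.414 and 0.805 CPM to 6.55, 8.17 and 12.6 CPM, a log2 change of 4.04 (± 0.62 SE, adjusted p = 0.000454). In csf1rDM the stages overlapped, with 0.606, 0.405 and 1.71 CPM and then 5.54, 3.61 and 1.63 CPM, a log2 change of 1.95 (± 0.59 SE, adjusted p = 0.0258) that was lost without replicate 1 or 2 at 28 hpf or replicate 1 at 50 hpf, with adjusted p up to 0.0998.

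Counts of the 2 forms of a subunit can be set against each other within a library, which no scaling alters. Gene length was not corrected, so only the change of such a ratio between libraries is read. The mean log2 ratio of ndufa4b to ndufa4 was -2.13 in control and -0.67 in csf1rDM at 28 hpf, and 0.58 and 1.22 at 50 hpf. For cox6b1 to cox6b2 the means were -4.27, -3.04, -1.28 and -1.18 in the same order, and for cox8b to cox8a -2.42, -1.73, -0.60 and -0.23. For these 3 pairs the csf1rDM libraries at 28 hpf all lay above the control libraries at 28 hpf and below the control libraries at 50 hpf. For cox8b to cox8a the higher ratio in csf1rDM does not mean more cox8b. In fits without 1 library the genotype difference of cox8b was -0.14 to 0.16 at 28 hpf and -0.46 to -0.26 at 50 hpf. That of cox8a at 28 hpf was -0.74 to -0.49. For cox4i1l to cox4i1 the means were -8.29, -7.52, -4.08 and -5.26, the genotypes overlapped at 28 hpf, and at 50 hpf the csf1rDM libraries lay below the control libraries.

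The isoform levels are given beside the muscle markers, whose part in them was not tested. Of the 3 control libraries at 50 hpf, replicate 3, with 7.22 CPM of muscle markers, had the highest ndufa4b, cox6b1 and cox4i1l levels, and replicate 2, with 3392 CPM, the highest cox8b level. Of the 3 csf1rDM libraries at 50 hpf, replicate 3, with 5023 CPM, had the lowest level of ndufa4b, cox6b1, cox8b and cox4i1l. At 28 hpf, csf1rDM replicate 3, with 2936 CPM, had the lowest ndufa4b and cox6b1 levels of its group and the highest cox4i1l level. In the 7-library fit ndufa4b (2.96 and 1.73), cox6b1 (2.76 and 1.45) and cox4i1l (4.48 and 2.84) passed in both genotypes, and cox8b passed in control (1.48, edgeR adjusted p = 0.0277) and not in csf1rDM (0.97, adjusted p = 0.144).

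**Figure D4:**
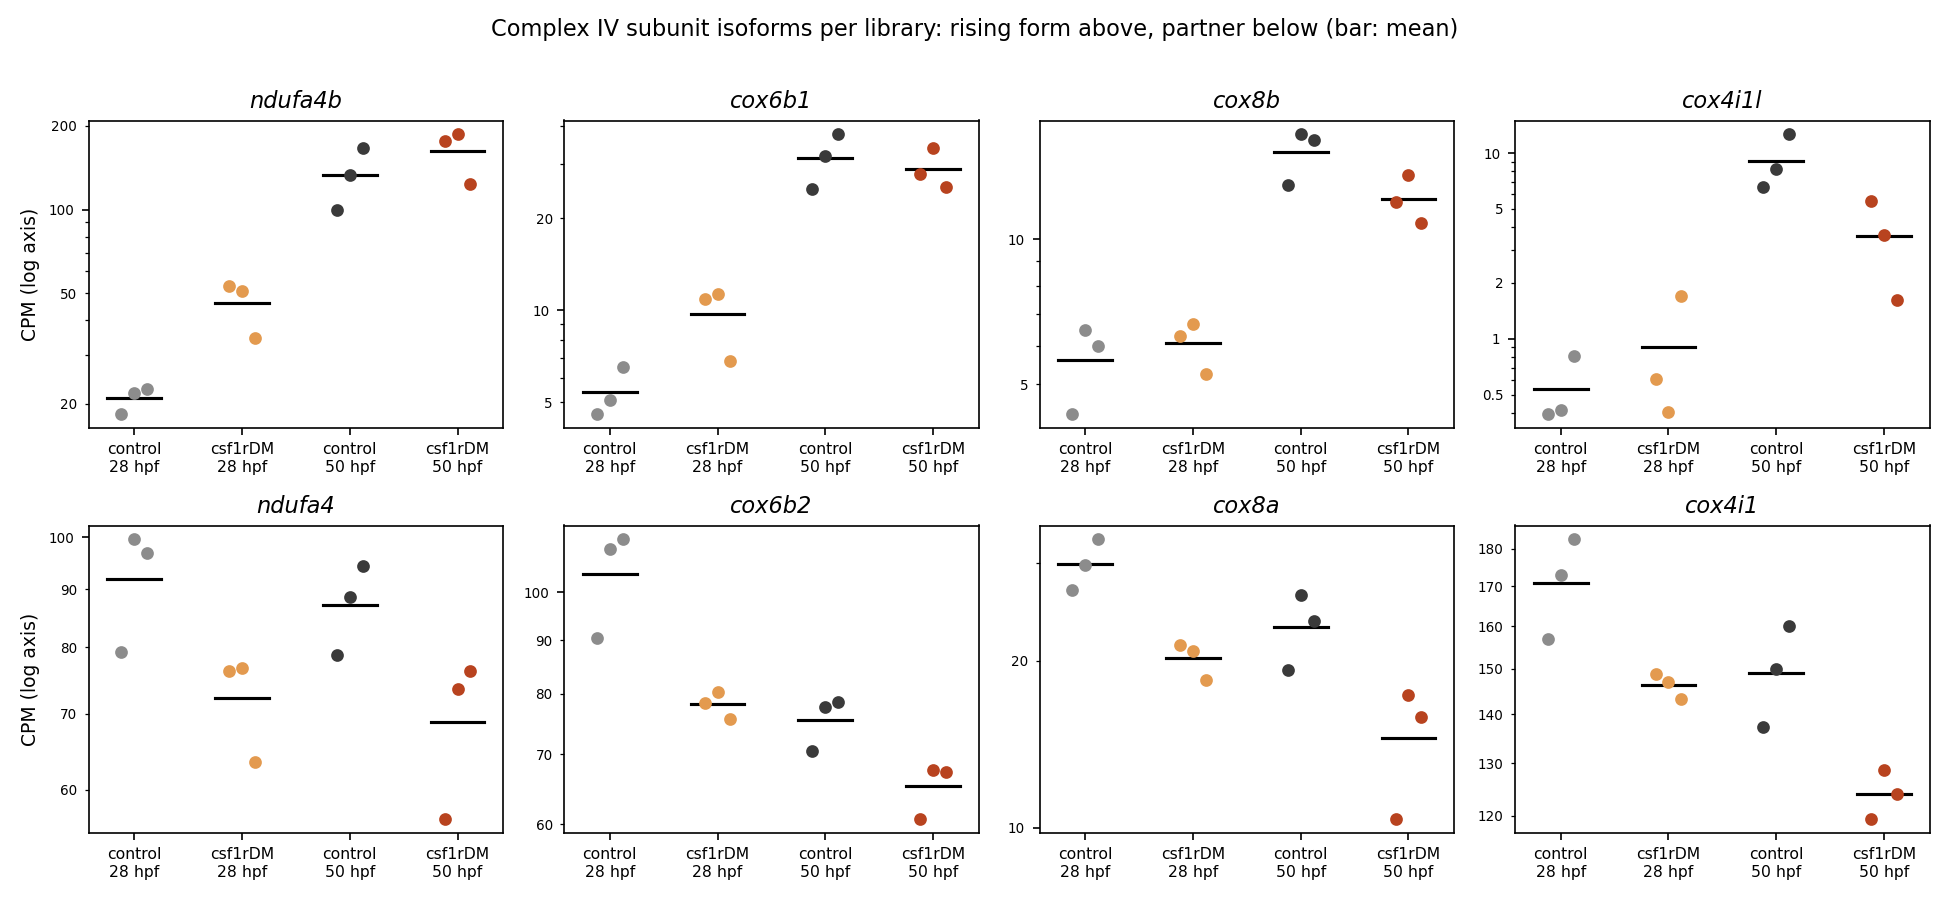
Level in CPM (log axes, a scale for each panel) of 4 complex IV subunit genes that rose between 28 and 50 hpf (top) and of the partner form of each (bottom), in each library by genotype and stage, with the group mean as a bar. In csf1rDM at 28 hpf ndufa4b lies at 34.4 to 53.0 CPM, between the control libraries at 28 hpf (18.4 to 22.7 CPM) and at 50 hpf (99.4 to 166 CPM).

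Outside complex IV few nuclear members changed with stage. The beta subunit gene atp5f1b, with the levels given above, rose in both genotypes, by log2 changes of 0.42 (± 0.07 SE, edgeR adjusted p = 0.00108) and 0.47 (± 0.07 SE, adjusted p = 0.000447), and both calls held without any 1 library of the compared groups. Its partner in the catalytic head, atp5f1a, had 0.21 and 0.19 (± 0.08 SE each, adjusted p = 0.0917 and 0.118). Also higher in both was ndufv1 (0.35 and 0.27), although each of these calls was lost without 4 of the 6 libraries compared, with adjusted p up to 0.132.

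Lower with stage were subunits of complexes III and IV and an assembly factor of complex II. The assembly factor gene sdhaf4 had 15.3, 16.8 and 16.6 CPM at 28 hpf and 7.74, 9.60 and 9.26 CPM at 50 hpf in control, and 12.7, 13.5 and 12.3 CPM and then 8.45, 8.75 and 7.54 CPM in csf1rDM. The stages were apart, with log2 changes of -0.87 (± 0.15 SE, edgeR adjusted p = 0.00109) and -0.64 (± 0.16 SE, adjusted p = 0.00817). The Rieske iron-sulphur protein gene uqcrfs1 (-0.37 and -0.39) and cox7a2 (-0.48 and -0.53) were lower in both genotypes. By call alone uqcrh, cox6b2 and ndufaf6 were lower in control and uqcrc2a in csf1rDM. The uqcrfs1 and cox7a2 calls were each lost without at least 1 of the libraries compared, with adjusted p up to 0.0993 and 0.129.

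Of the neighbouring lists, the TCA cycle held genes that changed in both directions with stage. Mitochondrial malate dehydrogenase (mdh2) rose by log2 changes of 0.58 and 0.80 and isocitrate dehydrogenase (idh2) by 0.59 and 0.50, while the succinyl-CoA ligase genes suclg1 (-0.77 and -0.81), suclg2 (-0.40 and -0.83) and sucla2 (-0.64 and -0.54) fell. In all 2 of 19 TCA genes rose and 6 fell in each genotype. Among the regulators 3 of 11 rose and 1 fell in control and 4 rose and 1 fell in csf1rDM. They included nrf1 (0.56 and 0.70), a transcription factor for respiratory genes, and sirt3 (0.85 and 1.09), a mitochondrial deacetylase, both higher in both genotypes. The 15 proliferation genes had medians of -0.83 and -1.62 with stage.

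The third comparison asked whether the genotype effect changed between 28 and 50 hpf. No member passed the interaction in edgeR, where 0.377% of all genes were higher and 0.542% lower, and 0.158% passed the thresholds of the study. At an unadjusted p under 0.05 there were 5 members, and DESeq2 gave 0 adjusted and 8 unadjusted. The smallest adjusted p was that of cox6b1, with an interaction of -0.95 (± 0.31 SE, edgeR adjusted p = 0.208). For ndufa4b it was -0.85 (± 0.30 SE, adjusted p = 0.245). For these genes the genotype differences of 28 hpf (0.83 and 1.13) stood beside -0.12 and 0.28 at 50 hpf, with SEs of 0.21 each at 50 hpf.

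Mitochondrial and nuclear transcripts were last compared within each library, as the log2 ratio of their summed counts. In control the ratio was 0.524, 0.511 and 0.476 at 28 hpf and 0.797, 0.697 and 0.755 at 50 hpf. In csf1rDM it was 0.701, 0.595 and 0.642 at 28 hpf and 0.978, 0.997 and 0.944 at 50 hpf. The csf1rDM libraries lay above the control libraries at each stage without overlap, and the 50 hpf libraries above the 28 hpf libraries of the same genotype. The mean differences were 0.14 and 0.22 between genotypes at 28 and 50 hpf, and 0.25 and 0.33 between stages in control and csf1rDM. No test was made of this sum over members.

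The sum gives more weight to members with more counts. When each member instead had equal weight, as a mean of log2 CPM, the genotype difference at 28 hpf changed sign to -0.06, and it was 0.12 at 50 hpf. By complex, the differences between genotypes at 28 and 50 hpf were -0.00 and 0.17 for complex I, 0.32 and 0.47 for complex III, 0.21 and 0.22 for complex IV, and -0.25 and -0.12 for ATP synthase. The ratio was therefore higher in csf1rDM at both stages in complexes III and IV, whose mitochondrial subunits are mt-cyb and mt-co1 to mt-co3, and lower at both in ATP synthase, whose ratio rests on mt-atp6. The genotype groups overlapped in complex IV at 28 hpf and in ATP synthase at 50 hpf, and in complex I at 28 hpf.

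**Figure D5:**
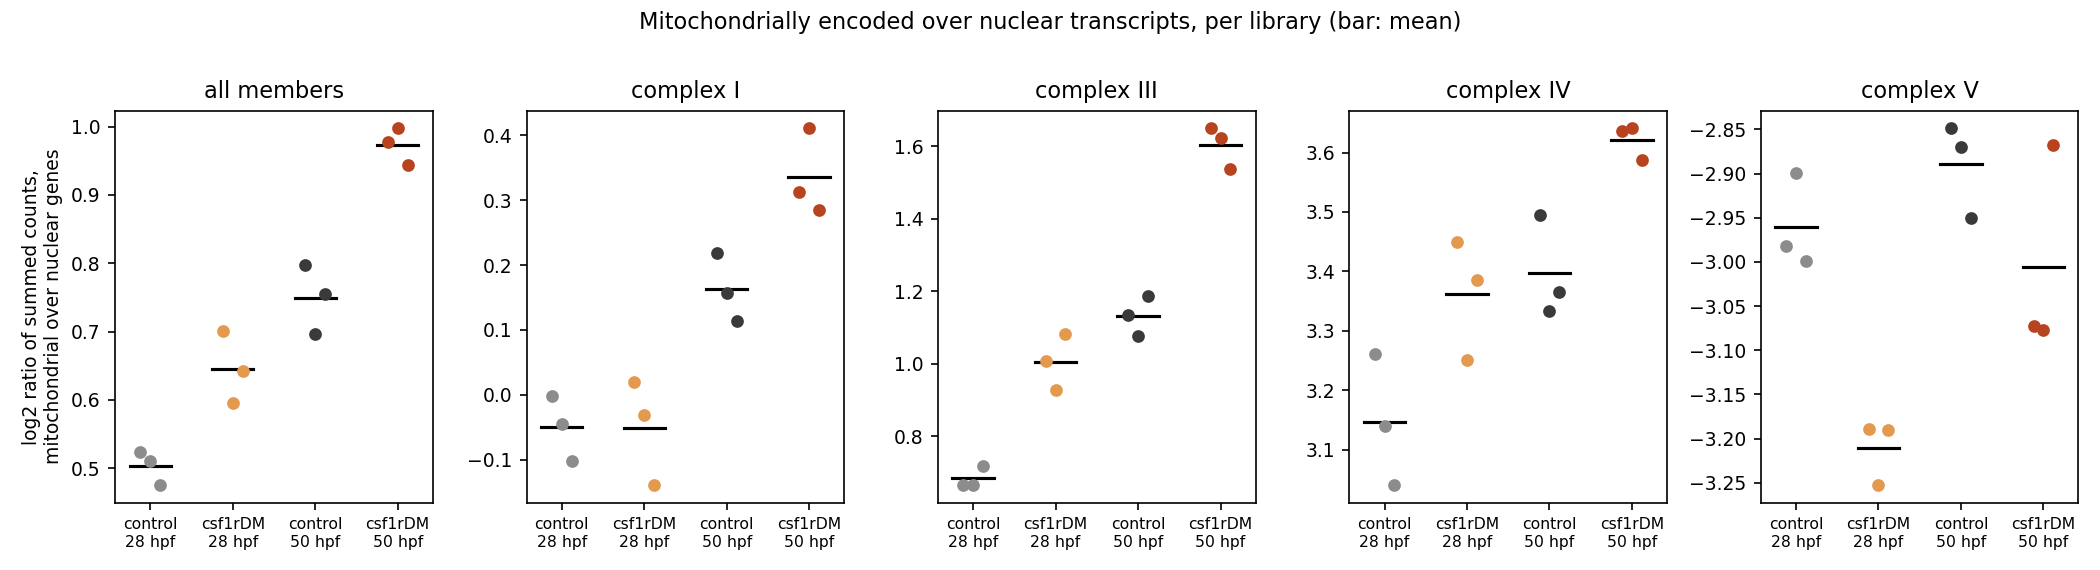
Log2 ratio of the summed counts of mitochondrially encoded over nuclear members (vertical axes, a scale for each panel) in each library by genotype and stage, for all members and for complexes I, III, IV and V, with the group mean as a bar. For all members the means are 0.50, 0.65, 0.75 and 0.97 from control 28 hpf to csf1rDM 50 hpf, and in complex III the groups rise from 0.68 to 1.60.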

How the data were processed

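RNA of sorted cells was amplified with SMART-seq v4 and sequenced as paired 75-base reads, and the authors mapped the reads with STAR 2.5.4b to GRCz10. The submitters' processing notes also list CASAVA 1.8, cutadapt, Cufflinks 2.2.1, HTSeq 0.11.0 and edgeR. The deposited table holds whole-number counts per Ensembl gene ID, unnormalised. The strand setting and annotation version are not given in the sources used here. Intervals and tests on amplified reads without molecular identifiers do not see amplification error.

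Symbols were found for 27000 IDs (76.9%), the rule ignored letter case, and symbols are printed in lower case. Transcript lengths were not used, so levels are not compared between genes. All 12 libraries entered 1 quasi-likelihood fit in edgeR 4.0.16 (R 4.3.3) with a mean per group, filterByExpr, TMM scaling and Benjamini-Hochberg adjustment over 16429 genes. The SE of a log2 fold change was its size over the square root of F. The procedure was run on simulated data with the same spread for all genes. Changes were put only into genes with a mean of at least 10 CPM and were larger than most differences reported here. The simulation therefore does not check small changes or genes at low levels. Library ratios used a pseudocount of 0.5.

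The genes given in detail were drawn from a set fixed by rule. It held the mitochondrially encoded members, members past the study's thresholds and paralogue sets. It also held the 4 largest rises and falls per contrast among nuclear members with a mean of at least 10 CPM. Part of that set is not described, including cox7c, a fall between genotypes at 50 hpf, and the paralogues ndufa9b, atp5mc3b, atp5mea and atp5meb. Other members were named after their values were seen. The members and lists were chosen with earlier results of these data known. Alternatives were other scalings, filters, DESeq2 1.42.0, a replicate block, fits of the compared groups alone and fits without each library.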

Additional observations from a re-analysis of the deposited data

How the results depend on the processing

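The genotype medians of nuclear members stayed below 0 in every fit run. In the 7 libraries low in muscle markers, the nuclear medians were -0.30 between genotypes at 28 hpf, -0.44 at 50 hpf, 0.03 with stage in control and -0.13 in csf1rDM. The mitochondrial medians there were -0.27, -0.28, 0.34 and 0.27 in the same order, and the interaction medians were -0.13 (nuclear) and 0.013 (mitochondrial). Fewer libraries enter that fit. At the study's thresholds, higher and lower members in the main fit numbered 1 and 1 at 28 hpf, 0 and 0 at 50 hpf, 4 and 0 with stage in control, and 2 and 0 in csf1rDM. The higher member at 50 hpf, cox7a1, was lost (0) with no filter and with the replicate block. A minimum of 10 counts in every library also gave 0, but cox7a1 lies below that minimum, so it was removed there and not retested. Fitting the compared groups alone gave 10 lower members at 50 hpf, 10 with stage in control and 2 in csf1rDM. As a mean of log2 CPM, the mitochondrial to nuclear difference was -0.059 and 0.12 between genotypes and 0.38 with stage in csf1rDM. The cause of these shifts was not tested.

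Without 1 library, lower members ranged from 15 to 55 at 28 hpf, 7 to 42 at 50 hpf, 3 to 11 with stage in control and 2 to 10 in csf1rDM. Higher members ranged from 1 to 2, 0 to 0, 6 to 12 and 12 to 18. Nuclear medians ranged from -0.49 to -0.31, -0.45 to -0.24, -0.21 to 0.012 and -0.14 to 0.02, and mitochondrial medians from -0.35 to -0.20, -0.23 to -0.031, 0.12 to 0.29 and 0.35 to 0.48. The interaction medians ranged from -0.10 to 0.14 (nuclear) and 0.10 to 0.24 (mitochondrial).

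DESeq2 gave 47 lower and 3 higher members at 28 hpf and 30 and 1 at 50 hpf. The share of all genes called is not given for DESeq2 or for the other alternative fits. Whether replicate numbers pair libraries cannot be told from 3 libraries a group. Deviations of same-numbered libraries had r from -0.357 to 0.168. Between stages in csf1rDM these r were 0.144, 0.023 and 0.108, above the best other-numbered r (-0.050, -0.008 and 0.033). Between genotypes at 50 hpf they were 0.038, -0.118 and -0.357, below the best others (0.230, 0.223 and 0.282). With the replicate block 33 members were lower at 28 hpf and 35 at 50 hpf. With no filter the median of all genes moved to 0.15 at 50 hpf between genotypes, 0.30 with stage in csf1rDM and 0.12 in the interaction. With 3 libraries a group, SEs of passing members lay between 0.071 and 0.67 log2 units, and the SE of mt-atp8, with under 1 CPM in each library, was 0.69 between genotypes at each stage.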

Other observations

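Genes of the neighbouring lists that the report does not describe are given here as values. Among further assembly factors cox17, a copper chaperone for complex IV, fell with stage by log2 changes of -0.84 (edgeR adjusted p = 0.00164) in control and -0.83 (adjusted p = 0.00184) in csf1rDM, and uqcc2, a complex III factor, by -0.48 and -0.47 (adjusted p = 0.0417 and 0.0449). Among regulators of mitochondrial genes, gabpa fell with stage by -0.51 and -0.76 in the same order (adjusted p = 0.00834 and 0.000553). By call alone ppargc1b rose in control (0.67, adjusted p = 0.0488) and esrra and pprc1 in csf1rDM (1.17 and 1.43, adjusted p = 0.00318 and 0.000238). In the coenzyme Q pathway pdss2 was lower in csf1rDM at both stages (-0.56 and -0.54, adjusted p = 0.0273 and 0.0333).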
